A study of Mus musculus with 8 samples.

Results

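Amino acids filtered at the glomerulus are recovered by carriers of the solute carrier (SLC) superfamily, and 7 of its families, Slc1, Slc3, Slc6, Slc7, Slc36, Slc38 and Slc43, were examined here across whole kidneys of control and SIK mutant mice. Members were the protein-coding genes whose symbol begins with one of these family names and whose mean RSEM expected count over the 8 kidneys was at least 10. Of 64 such genes in the annotation, 44 were members, out of 55401 genes in each table. They comprised 12 of 21 Slc6 genes, 11 of 16 Slc7 genes, 8 of 11 Slc38 genes, 5 of 7 Slc1 genes, 3 of 4 Slc36 genes, 3 of 3 Slc43 genes and 2 of 2 Slc3 genes. The symbol rule also took in genes that are not amino acid carriers. Examples are Slc7a6os, which is named for its position next to Slc7a6 and is not a carrier, and Slc43a3, a carrier of nucleobases.

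RNA-Seq was performed on 4 Ctrl kidneys and 4 SIK mutant kidneys, in a study of salt-inducible kinases (SIKs) and vitamin D metabolism. Per the labels, both groups carried loxP-flanked (f/f) alleles of SIK1, SIK2 and SIK3. Only the mutants also carried Six2-Cre, a recombinase driven in nephron progenitors, so that the epithelium descending from them is the target and stromal, vascular and blood cells keep intact alleles. The study's text gives a heterozygous Sik1 genotype for surviving mutants of this cross, so the group is called SIK mutant rather than triple knockout, and it gives the controls as Cre-negative littermates of both sexes. Age, sex, litter and batch are not in the labels.

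In the proximal tubule, carriers in the brush border take up neutral, cationic, anionic and imino acids from the filtrate, and a second set in the basolateral membrane passes them to the blood. Several light chains of the Slc7 family reach the membrane only when linked to a heavy chain of the Slc3 family. Slc36 and Slc38 members also work in lysosomes and in glutamine uptake, and Slc6 members carry taurine, creatine and betaine as well. SIKs are inhibited by cAMP and protein kinase A, and among their substrates are CRTC proteins, coactivators of the transcription factor CREB.

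Depth was similar in all libraries, at 10179648 to 10925100 expected counts. Sik3 was the targeted gene with the clearest separation, at 58.6, 66.5, 65.7 and 61.0 CPM (counts scaled to library size) in Ctrl and 41.4, 39.7, 43.1 and 33.7 in the mutants. Its log2 fold change was -0.67 (edgeR FDR 0.0697), while Sik2 and Sik1 had log2 fold changes of -0.44 and 0.31. Counts cover whole genes, so reads outside the deleted exons are included. The summed CPM of 4 Y-linked genes was 76.8 to 94.9 in 6 kidneys and 0 and 0.175 in Ctrl 3 and Ctrl 4, and Xist was at 260.5 and 297.8 CPM in those 2 and at 0.494 or below in the others. Both kidneys without such reads were controls, and genotype values are therefore given for all 8 kidneys and, where they move, for the 6 with Y-linked reads. The summed level of 7 fat markers was 0, 4.64, 269.1 and 41.6 TPM (transcripts scaled to length and library size) in Ctrl 1 to 4 and 157.2 to 220.6 TPM in the mutants. Kidney identity was plain in every library, with 5 markers of the early proximal tubule summing to 2938 to 4005 TPM.

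Upstream sequences are shown for members that differed between Ctrl kidneys with and without Y-linked reads and whose window held a motif for CREB or the androgen receptor. The first is reached by SIK signalling and the second is a known regulator of mouse kidney genes that differ between the sexes. Of the 44 members, 30 had an entry in the RefSeq promoter table (GRCm38.p6), and the 250 bases before the start were searched on both strands for TGACG, the core of the cAMP response element bound by CREB (CGTCA on the other strand), and for AGAACA, a hexamer bound by the androgen receptor (TGTTCT on the other strand). Of the 9 members that differed with Y-linked reads, 4 had a window. Of these, 3 held TGACG and 2 held AGAACA, where 17.8% and 16.1% of all windows in the table did. Each window with a match is written 5′ to 3′ on the strand of the gene, with matches in capitals. Slc1a4 lies at chr11:20332714-20332963 on the minus strand, Slc36a1 at chr11:55204090-55204339 on the plus strand and Slc1a3 at chr15:8710808-8711057 on the minus strand.
Slc1a4: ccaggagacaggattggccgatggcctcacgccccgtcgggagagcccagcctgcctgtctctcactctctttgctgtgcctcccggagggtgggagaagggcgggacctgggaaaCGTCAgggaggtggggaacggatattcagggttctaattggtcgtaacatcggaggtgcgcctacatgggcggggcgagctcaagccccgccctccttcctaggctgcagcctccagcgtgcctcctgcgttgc
Slc36a1: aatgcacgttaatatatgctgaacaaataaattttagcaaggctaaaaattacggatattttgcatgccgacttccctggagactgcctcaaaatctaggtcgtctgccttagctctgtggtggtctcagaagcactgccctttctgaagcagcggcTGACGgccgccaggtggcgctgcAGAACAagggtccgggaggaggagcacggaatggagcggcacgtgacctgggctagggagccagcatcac
Slc1a3: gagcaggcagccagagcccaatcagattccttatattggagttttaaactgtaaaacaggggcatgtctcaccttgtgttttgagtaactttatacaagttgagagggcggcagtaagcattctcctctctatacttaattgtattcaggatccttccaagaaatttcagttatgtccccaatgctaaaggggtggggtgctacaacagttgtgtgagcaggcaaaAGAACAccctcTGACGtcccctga

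The Slc1a4 window held 1 TGACG core and no AGAACA hexamer, and those of Slc36a1 and Slc1a3 held 1 of each. Over all members with a window, 9 of 30 (30.0%) held TGACG and 4 of 30 (13.3%) held AGAACA. The shares over 32851 windows of the same length in the table were 17.8% and 16.1%. Among the 6 members with the smallest p between genotypes, 3 had a window, none of which held TGACG and 1 of which, that of Slc6a19, held AGAACA. These matches describe the letters only.

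Levels between genes were compared in TPM, which is scaled to transcript length. A few carriers made up most of the transcripts of the group: the 5 highest members held 52.7% and the 10 highest 74.8% of the summed mean TPM. The mean was above 100 TPM in 5 members, between 10 and 100 in 17, between 1 and 10 in 16 and below 1 in 6. The sum over all 44 members was 1566, 1647, 1871 and 1896 TPM in the Ctrl kidneys and 1870, 1786, 1822 and 1612 TPM in the mutants, with overlapping groups.

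The highest member was Slc3a1, the rBAT heavy chain whose loss causes cystinuria, at 236.4, 220.4, 260.9 and 216.2 TPM in Ctrl and 252.1, 244.6, 206.3 and 204.5 TPM in the mutants. Its classical partner Slc7a9, the light chain of the cystine and dibasic amino acid carrier, had a mean of 89.5 ± 23.1 TPM (SD, n = 4) in Ctrl and 74.0 ± 3.95 TPM in the mutants. Slc7a13, a second light chain known to pair with rBAT in the straight proximal tubule, had the second highest mean over all kidneys, 197.9 TPM, which no single kidney represents because it ranged from 1.29 to 312.3 TPM. Thus the heavy chain was steady from kidney to kidney while one of its light chains was not.

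Among apical carriers of neutral amino acids, Slc6a18 (B0AT3) averaged 193.3 TPM and Slc6a19 (B0AT1, the Hartnup disorder gene) 47.7 TPM. Slc6a20b and Slc6a20a, neighbouring paralogs of the imino acid carrier group, averaged 96.4 and 9.67 TPM. Their reads could be split between the pair by RSEM, but its posterior SD was at most 1.53% of the count for Slc6a20a and 0.136% for Slc6a20b. Slc1a1, the apical glutamate and aspartate carrier, led its family at 65.4 TPM and held 67.6% of the Slc1 sum.

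On the basolateral side, Slc3a2, the 4F2 heavy chain, averaged 142.9 TPM and its light chain Slc7a7, the gene of lysinuric protein intolerance, 162.3 TPM. Slc7a8, another 4F2 light chain, averaged 48.5 TPM and Slc43a2, a uniporter of branched-chain and aromatic amino acids, 37.0 TPM. Slc38a3, which imports glutamine for ammonia production, averaged 32.8 TPM, close to Slc38a10, the leader of its family at 38.2 TPM. Outside transepithelial transport, the creatine carrier Slc6a8 averaged 82.2 TPM, the taurine carrier Slc6a6 39.2 TPM and the betaine carrier Slc6a12 1.63 TPM. Slc36a1, a proton-coupled carrier of lysosomes, averaged 19.4 TPM and Slc38a2, an amino acid carrier induced on starvation, 11.4 TPM. Neighbours in this order, such as Slc7a7 and Slc3a2 or Slc38a10 and Slc43a2, had overlapping ranges over kidneys, and their order was not tested.

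**Figure D1:**
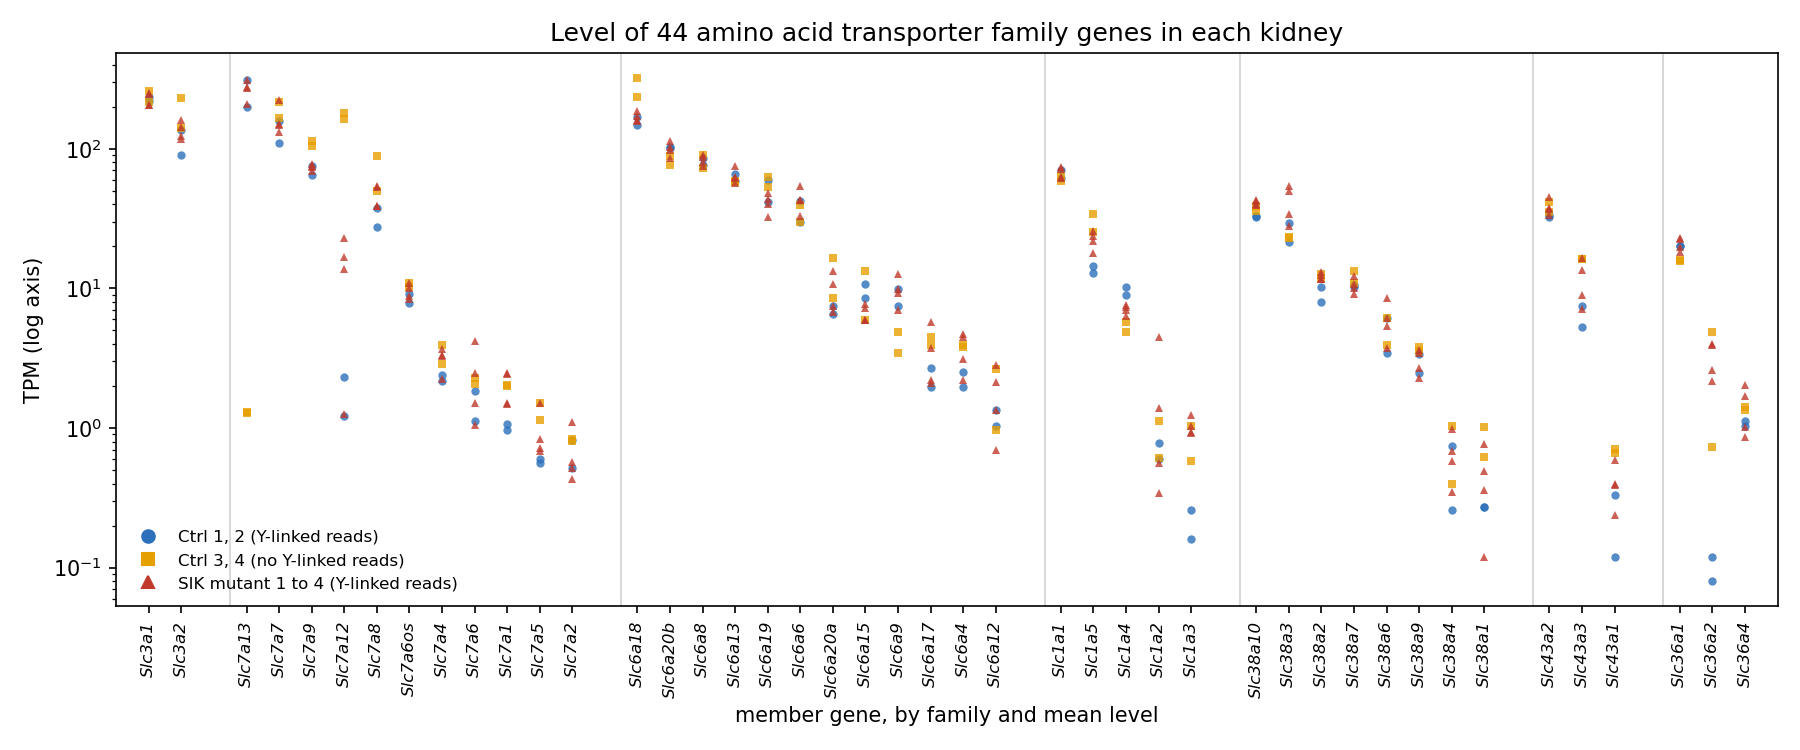
Level in TPM on a log axis of each of the 44 members in each of the 8 kidneys, grouped by family and ordered by mean, with 1 point per kidney. Slc7a13 drops to 1.3 and 1.29 TPM in Ctrl 3 and 4 and Slc7a12 climbs to 181.4 and 163.3 TPM there, while Slc3a1 stays between 204.5 and 260.9 TPM in all kidneys.

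No member differed between SIK mutant and Ctrl kidneys after adjustment over all genes tested. The edgeR quasi-likelihood test gave 0 of 44 members at an FDR under 0.05, and 0.0% of the 14326 genes tested passed as well. The lowest edgeR FDR of a member was 0.576, and the DESeq2 Wald test likewise called 0 members, against 0.281% of its 25223 genes. At an unadjusted p under 0.05 edgeR had 6 members (13.6%, against 6.36% of all genes tested) and DESeq2 had 7, against 3.89% of its genes. The DESeq2 shares are over genes with any count, near-silent ones included, so they are not a like background for the members. Of the 6, 1 was higher and 5 were lower in the mutants, where 2.76% and 3.59% of all genes were higher and lower. In these bulk samples, fewer cells of a type and less RNA per cell cannot be told apart.

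Sizes were small for most of the group. The absolute log2 fold change was under 0.25 in 28 of 44 members, 18 members were higher and 26 lower in the mutants, and the median log2 fold change was -0.04, beside -0.0038 over all genes tested. The CPM ranges of the groups did not overlap in 3 members (6.82%, against 4.03% of all genes tested). Those were Slc1a2, Slc6a18 and Slc6a19, each lower in all 4 mutants than in any Ctrl kidney, with an exact two-sided permutation p of 0.0286, the smallest that 70 assignments can give.

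Slc38a3, the basolateral glutamine importer at chr9:107650634-107669530, was the only one of the 6 that was higher in the mutants. Ctrl kidneys had 54.0, 67.7, 46.0 and 46.9 CPM and mutants 105.9, 96.2, 66.5 and 65.7 CPM. Ctrl 2 lay just above mutants 3 and 4, and mutants 1 and 2 stood well above all Ctrl kidneys. The log2 fold change was 0.64 ± 0.187 (SE), with an edgeR FDR of 0.576. Restricted to the 6 kidneys with Y-linked reads, it was 0.47 ± 0.218, and over 18 other analyses it stayed between 0.46 and 0.77.

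Slc6a19 and Slc6a18 lie next to each other on chromosome 13, at chr13:73679745-73704865 and chr13:73661752-73678023. Slc6a19 measured 164.9, 223.3, 205.3 and 178.4 CPM in Ctrl and 156.8, 104.4, 130.0 and 161.4 CPM in the mutants. The narrowest gap was between Ctrl 1 and mutant 4. Its log2 fold change was -0.48 ± 0.154 (edgeR FDR 0.678) and remained -0.48 ± 0.189 in the 6 kidneys with Y-linked reads. Slc6a18 measured 444.6, 449.4, 768.5 and 585.7 CPM in Ctrl and 412.6, 387.1, 407.8 and 420.6 CPM in the mutants. Much of its group difference came from Ctrl 3 and 4, the kidneys without Y-linked reads. Its log2 fold change of -0.47 ± 0.171 (edgeR FDR 0.715) became -0.13 ± 0.0877 in the 6 kidneys.

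A like shift was seen for Slc7a9, at 107.9, 123.3, 160.0 and 145.1 CPM in Ctrl and 104.9, 96.0, 110.1 and 109.0 CPM in the mutants. Ctrl 3 and 4 were again the highest, and Ctrl 1 lay within the mutant range. The log2 fold change was -0.35 ± 0.125 (edgeR FDR 0.713) in 8 kidneys and -0.13 ± 0.102 in 6. Beside these 3 apical carriers, all 5 markers of the S1 and S2 segments of the proximal tubule had a negative log2 fold change in 8 kidneys, with a median of -0.28. Of the 5, Lrp2 (-0.05 ± 0.125) and Slc5a12 (-0.11 ± 0.157) were within their error of 0. In the 6 kidneys the median was -0.13 and Lrp2 was at 0.08. The markers summed to 3292 to 4005 TPM in Ctrl and 2938 to 3486 TPM in the mutants, mostly from Slc34a1 at 2344 to 3158 and 2231 to 2688 TPM. Slc5a2, the glucose carrier of the early segment, was the furthest, at 454.5 to 555.2 CPM in Ctrl and 315.4 to 320.8 CPM in the mutants, a log2 fold change of -0.67 ± 0.0955 (edgeR FDR 0.0697) that was -0.66 ± 0.102 in the 6 kidneys. Of 5 markers of the later S3 segment, 4 were higher in the mutants in 8 kidneys, with a median of 0.25, and the median was 0.06 in 6. Cyp7b1 (0.24 ± 1.28) and Slc22a7 (0.26 ± 0.279) were within their error of 0 in 8 kidneys, and Atp11a was at 0.44 ± 0.433. In the 6 kidneys Atp11a and Cyp7b1 were lower in the mutants, at -0.20 ± 0.149 and -0.75 ± 0.735. Slc5a1 (0.36), Slc22a7 (0.30) and Slc22a13 (0.06) were higher there. The part of these markers in the carriers' values was not tested.

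Slc6a15 (B0AT2), a carrier of branched-chain amino acids and proline known mainly from brain, measured 37.4, 29.7, 40.2 and 17.3 CPM in Ctrl and 19.95, 21.05, 16.85 and 18.95 CPM in the mutants. Ctrl 1, 2 and 3 exceeded every mutant, and Ctrl 4 fell among the mutants. Its log2 fold change was -0.70 ± 0.227 (edgeR FDR 0.702) in 8 kidneys. With only the 6 kidneys with Y-linked reads it was -0.79 ± 0.13 (edgeR FDR 0.0766, DESeq2 FDR 0.00293).

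Slc1a2, the glutamate carrier GLT-1, was a low gene, at 44, 31, 50 and 40 counts in Ctrl and 26, 32, 14 and 25 counts in the mutants. On the CPM scale the groups were apart, with a log2 fold change of -0.79 ± 0.256 (edgeR FDR 0.702). In TPM the direction turned: Ctrl kidneys had 0.78, 0.60, 1.13 and 0.61 TPM and mutants 1.39, 4.46, 0.34 and 0.56 TPM. The effective length assigned to the gene was 1841 and 736.3 bases in mutants 1 and 2 and 4278 to 6262 bases in the other 6 kidneys.

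**Figure D2:**
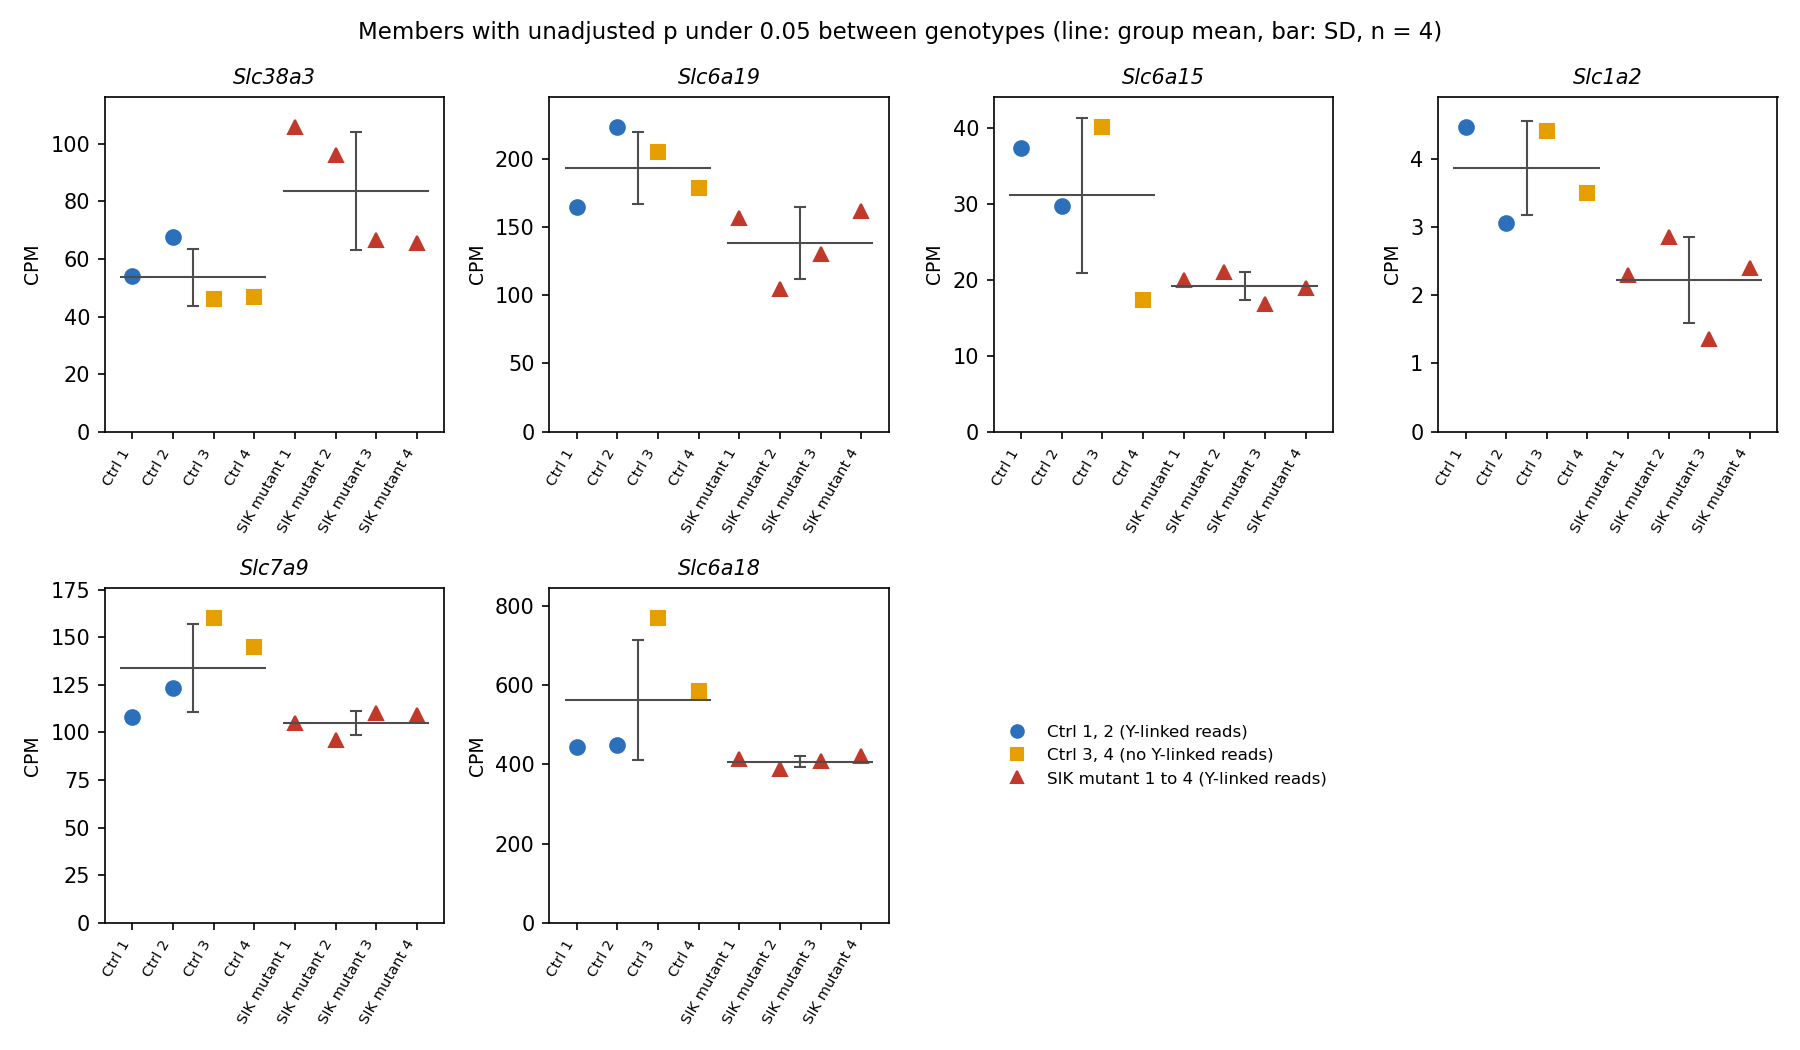
CPM of the 6 members with an unadjusted edgeR p under 0.05 between genotypes, 1 point per kidney, with the group mean as a line and the SD as a bar (n = 4). Slc1a2, Slc6a18 and Slc6a19 show no overlap between the groups, and for Slc6a18 the Ctrl mean of 562.1 CPM lies between Ctrl 1 at 444.6 CPM and Ctrl 3 at 768.5 CPM.

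Most of the abundant carriers of reabsorption were near 0 between genotypes. On the apical side the log2 fold changes were -0.15 ± 0.112 for Slc3a1, -0.03 ± 0.116 for Slc1a1, -0.01 ± 0.125 for Slc6a20b and -0.16 ± 0.299 for Slc6a20a. In the 6 kidneys with Y-linked reads the first 3 were lower, at -0.23 ± 0.109, -0.18 ± 0.097 and -0.18 ± 0.0946. Slc6a20a was at 0.16 ± 0.302 there. On the basolateral side the log2 fold changes in 8 kidneys were -0.15 ± 0.13 for Slc7a7, -0.21 ± 0.204 for Slc3a2, -0.21 ± 0.275 for Slc7a8 and 0.02 ± 0.0993 for Slc43a2. In the 6 kidneys they were, in that order, 0.03 ± 0.115, 0.07 ± 0.155, 0.30 ± 0.176 and -0.03 ± 0.0981. The remaining named carriers were as close in 8 kidneys, with 0.13 ± 0.149 for Slc6a6, -0.05 ± 0.122 for Slc6a8, 0.07 ± 0.148 for Slc36a1, 0.11 ± 0.106 for Slc38a2 and 0.11 ± 0.0782 for Slc38a10. With limma on log2 TPM, where the median over all genes was itself shifted by 0.09 to 0.11, Slc1a1, Slc6a8, Slc7a7 and the Slc6a20 pair had the opposite sign. The widest errors among the named members were those of Slc7a12 (-2.68 ± 1.28), Slc7a13 (0.85 ± 1.3), Slc36a2 (1.13 ± 0.881), Slc6a12 (-0.27 ± 0.52) and Slc1a3 (0.88 ± 0.417).

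In the 6 kidneys with Y-linked reads, 2 Ctrl and 4 mutants, 1 of 44 members passed an edgeR FDR of 0.05, against 0.143% of 14719 genes tested. At an unadjusted p under 0.05 there were 8 members (18.2%, against 11.1%), 5 higher (6.4% of all genes) and 3 lower (4.74%) in the mutants. The member called was Slc36a2 (PAT2), a proline and glycine carrier of the proximal tubule that is also a surface marker of brown and beige fat cells. DESeq2 on the same kidneys called 4 members, Slc36a2, Slc1a3, Slc1a4 and Slc6a15, against 0.751% of 24382 genes. At an unadjusted p under 0.05 it had 10, against 5.47%. These shares too are over genes with any count, near-silent ones included. With all 8 kidneys and Y-linked reads as a covariate, edgeR called 0 members (0.00698% of all genes) and had 11 at an unadjusted p under 0.05, against 12.3%.

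Slc36a2, at chr11:55158470-55185077, had 2, 2, 111 and 17 counts in Ctrl and 49, 55, 82 and 92 counts in the mutants. Ctrl 1 and 2 were under the limit of 3 counts, and Ctrl 3 was the highest of all kidneys. In the 6 kidneys the fitted log2 fold change was 4.95 ± 0.547 (edgeR FDR 0.0166, DESeq2 FDR 6.15e-07), a value that depends on the prior count at such low levels. The ratio of pooled CPM, 278 counts in 4 mutants against 4 in Ctrl 1 and 2, was 32.2, with an exact 95% interval of 12.4 to 119.0 that covers counting error only. Apart from the order within Ctrl 1 and 2 and within mutants 1 and 2, the kidneys ranked as they did for the 7 fat markers, whose sum was 0, 4.64, 269.1 and 41.6 TPM in Ctrl and 168.2, 157.2, 197.0 and 220.6 TPM in the mutants. Each of the 7 markers was detected in at least 1 kidney, Ctrl 1 had all of them at 0, and 4 of the 7 passed an edgeR FDR of 0.05 in the 6 kidneys. Their part in the Slc36a2 difference was not tested.

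The glutamate carrier Slc1a3 (GLAST) was also lowest in Ctrl 1 and 2. It had 0.71, 1.09, 3.70 and 2.10 CPM in Ctrl and 3.27, 3.48, 3.68 and 3.75 CPM in the mutants. The fat markers were at 0 and 4.64 TPM in Ctrl 1 and 2, and for Slc1a3 Ctrl 3 lay within the mutant range. The log2 fold change in the 6 kidneys was 1.97 ± 0.313 (edgeR FDR 0.0693, DESeq2 FDR 0.0147), and the part of the fat markers in it was not tested.

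Slc1a4 (ASCT1), a carrier of serine, alanine and cysteine, was lower in the mutants than in Ctrl 1 and 2. It measured 41.8, 34.7, 16.3 and 19.4 CPM in Ctrl and 23.5, 20.2, 24.3 and 28.4 CPM in the mutants. The mutants lay between the 2 pairs of Ctrl kidneys. In the 6 kidneys the log2 fold change was -0.66 ± 0.143 (edgeR FDR 0.191, DESeq2 FDR 0.0349), while in all 8 it was -0.22 ± 0.277. Slc1a5 (ASCT2), the related glutamine carrier, had the mirror arrangement, with 36.03, 29.14, 61.90 and 51.39 CPM in Ctrl and 42.99, 47.54, 39.13 and 50.51 CPM in the mutants. Its log2 fold change was 0.48 ± 0.134 in the 6 kidneys (edgeR FDR 0.287) and 0.01 ± 0.212 in 8. Over all 18 alternatives, edgeR, DESeq2 and limma included, the FDR between genotypes ran from 6.15e-07 to 0.9999 for Slc36a2, from 0.0147 to 0.998 for Slc1a3, from 0.0349 to 0.9999 for Slc1a4, from 0.00293 to 0.998 for Slc6a15 and from 0.187 to 0.9999 for Slc1a5.

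**Figure D3:**
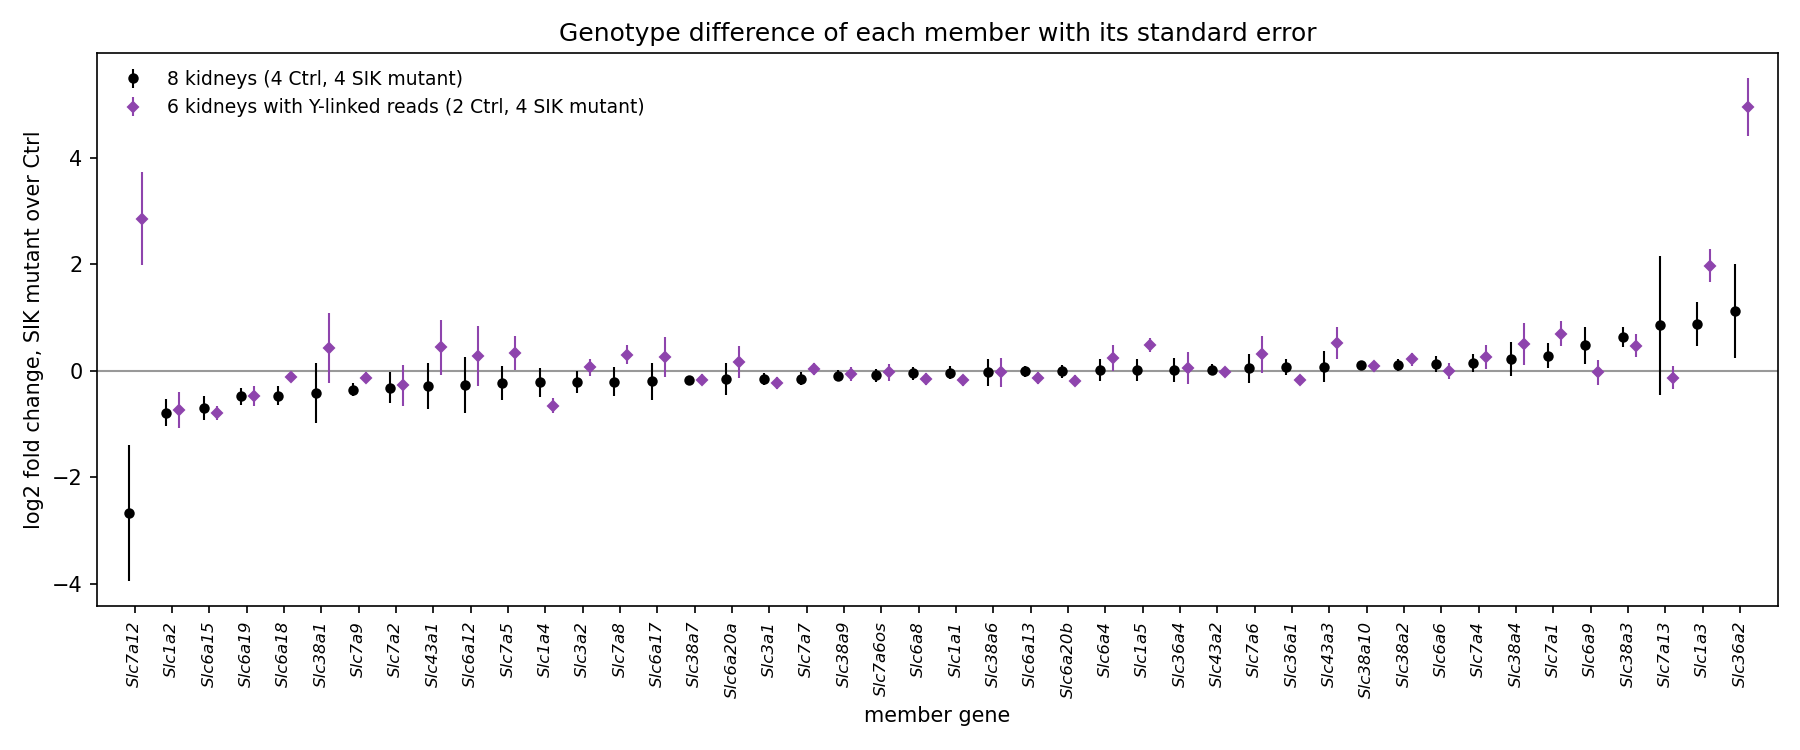
Log2 fold change of each member, SIK mutant over Ctrl, with its standard error, in all 8 kidneys (circles) and in the 6 kidneys with Y-linked reads (diamonds), ordered by the 8-kidney value. Most members lie near 0 in both, Slc7a12 moves from -2.68 to 2.85, and Slc36a2 moves from 1.13 to 4.95.

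The largest differences among the members separated Ctrl 3 and 4 from the other 6 kidneys. In a fit with genotype as a term, 9 of 44 members (20.5%) passed an edgeR FDR of 0.05 between kidneys without and with Y-linked reads, against 8.26% of all genes tested. Of these, 5 were higher and 4 lower in the kidneys without such reads, where 3.18% of all genes were called higher and 5.09% lower. No mutant lacked such reads, so the fitted differences compare Ctrl 3 and 4 with Ctrl 1 and 2, and the mutants add only to the error estimate. The split was read from 4 Y-linked genes and is not in the labels, and it rests on 2 kidneys, so sex, litter and any batch that these 2 shared cannot be told apart.

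Slc7a13 and Slc7a12 were the extremes. Slc7a13, the rBAT-linked carrier at chr4:19818725-19842218, measured 308.9, 197.5, 1.3 and 1.29 TPM in Ctrl and 312.3, 278.8, 210.2 and 272.5 TPM in the mutants. Nearly all of its transcript was missing from Ctrl 3 and 4, with a log2 difference of -7.84 ± 0.345 (edgeR FDR 8.11e-06). Slc7a12, an orphan light chain at chr3:14480697-14505830, measured 1.22, 2.32, 181.4 and 163.3 TPM in Ctrl and 13.8, 16.7, 22.8 and 1.27 TPM in the mutants. It was highest where Slc7a13 was lowest, and the log2 difference was 6.50 ± 0.854 (edgeR FDR 0.00273). Both were called in each of 12 other analyses of this contrast.

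Among kidneys with Y-linked reads Slc7a12 varied too. Mutants 1, 2 and 3 had 13.3, 15.7 and 22.5 CPM, whereas mutant 4, with 1.73 CPM, was like Ctrl 1 and 2 at 1.32 and 2.37 CPM. The log2 fold change between genotypes in these 6 kidneys was 2.85 ± 0.874, with an edgeR FDR of 0.314. The TPM of Slc7a12 and Slc7a13 added to 310.1, 199.8, 182.8 and 164.6 in Ctrl and 326.1, 295.5, 233.1 and 273.8 in the mutants, lowest in Ctrl 3 and 4. The whole Slc7 family summed to 525.0, 487.1, 529.9 and 596.0 TPM in Ctrl, with Slc7a7, Slc7a8 and Slc7a9 all higher in Ctrl 3 and 4 than in Ctrl 1 and 2. For the 5 markers of the S3 segment of the proximal tubule, the sum was 642.4, 453.1, 337.9 and 336.2 TPM in Ctrl and 427.7 to 720.0 TPM in the mutants. Of these markers Atp11a and Cyp7b1 passed an edgeR FDR of 0.05 for the same contrast, with log2 differences of -1.86 and -6.72. The other 3 did not pass and went the other way, at 0.18 for Slc5a1, 0.07 for Slc22a7 and 0.60 for Slc22a13. The lower sum in Ctrl 3 and 4 thus came from Atp11a and Cyp7b1. The part of the S3 markers in the Slc7a13 difference was not tested.

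The 7 other members that passed had smaller differences. Slc1a4 was lower without Y-linked reads by a log2 difference of -1.10 ± 0.174 (edgeR FDR 0.00621) and Slc1a5 was higher by 0.80 ± 0.16 (edgeR FDR 0.0166). Slc36a1, at chr11:55204350-55236330, measured 110.4, 105.6, 72.3 and 73.5 CPM in Ctrl and 88.8 to 100.9 CPM in the mutants, a log2 difference of -0.57 ± 0.0943 (edgeR FDR 0.00749). Slc6a18 was higher by 0.60 ± 0.131 (edgeR FDR 0.0239). The upstream windows printed above for Slc1a4, Slc36a1 and Slc1a3 were picked for holding a match, and each held a TGACG core. Slc1a4 and Slc36a1 fell while Slc1a3 rose in the kidneys without Y-linked reads, and a link between motif and level was not tested.

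Slc1a3 and Slc36a2 were higher in Ctrl 3 and 4 than in Ctrl 1 and 2, by 1.67 ± 0.386 (edgeR FDR 0.0298) and 4.73 ± 1.05 (edgeR FDR 0.0248). The fat markers were at 269.1 and 41.6 TPM in Ctrl 3 and 4. The mutants, all with Y-linked reads, were not low: Slc1a3 was at 3.27 to 3.75 CPM, beside 3.70 and 2.10 in Ctrl 3 and 4. Slc36a2 was at 4.33 to 8.85 CPM in the mutants, beside 9.77 and 1.49 in Ctrl 3 and 4. Neither gene therefore separated all kidneys by Y-linked reads. Over the 12 other analyses the difference of Slc1a3 ran from 1.21 to 2.03 and missed the FDR of 0.05 in 5, and that of Slc36a2 ran from 2.82, without Ctrl 3, to 5.53, without Ctrl 4, and missed it in 4. Without Ctrl 3 the differences of Slc1a4, Slc1a5, Slc36a1, Slc6a18 and Slc6a9 missed the FDR of 0.05. Without Ctrl 1 the same 5 missed it, and so did Slc1a3 and Slc36a2. The glycine carrier Slc6a9 (GlyT1), named because it completes the count, measured 31.8, 23.3, 9.51 and 12.7 CPM in Ctrl and 19.1, 24.2, 26.7 and 37.2 CPM in the mutants. Ctrl 3 and 4 were the lowest of the 8, with a log2 difference of -1.31 ± 0.297 (edgeR FDR 0.0278). The call count depended on single kidneys: it was 2 without Ctrl 1, 5 without Ctrl 2 and 4 without Ctrl 3.

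**Figure D4:**
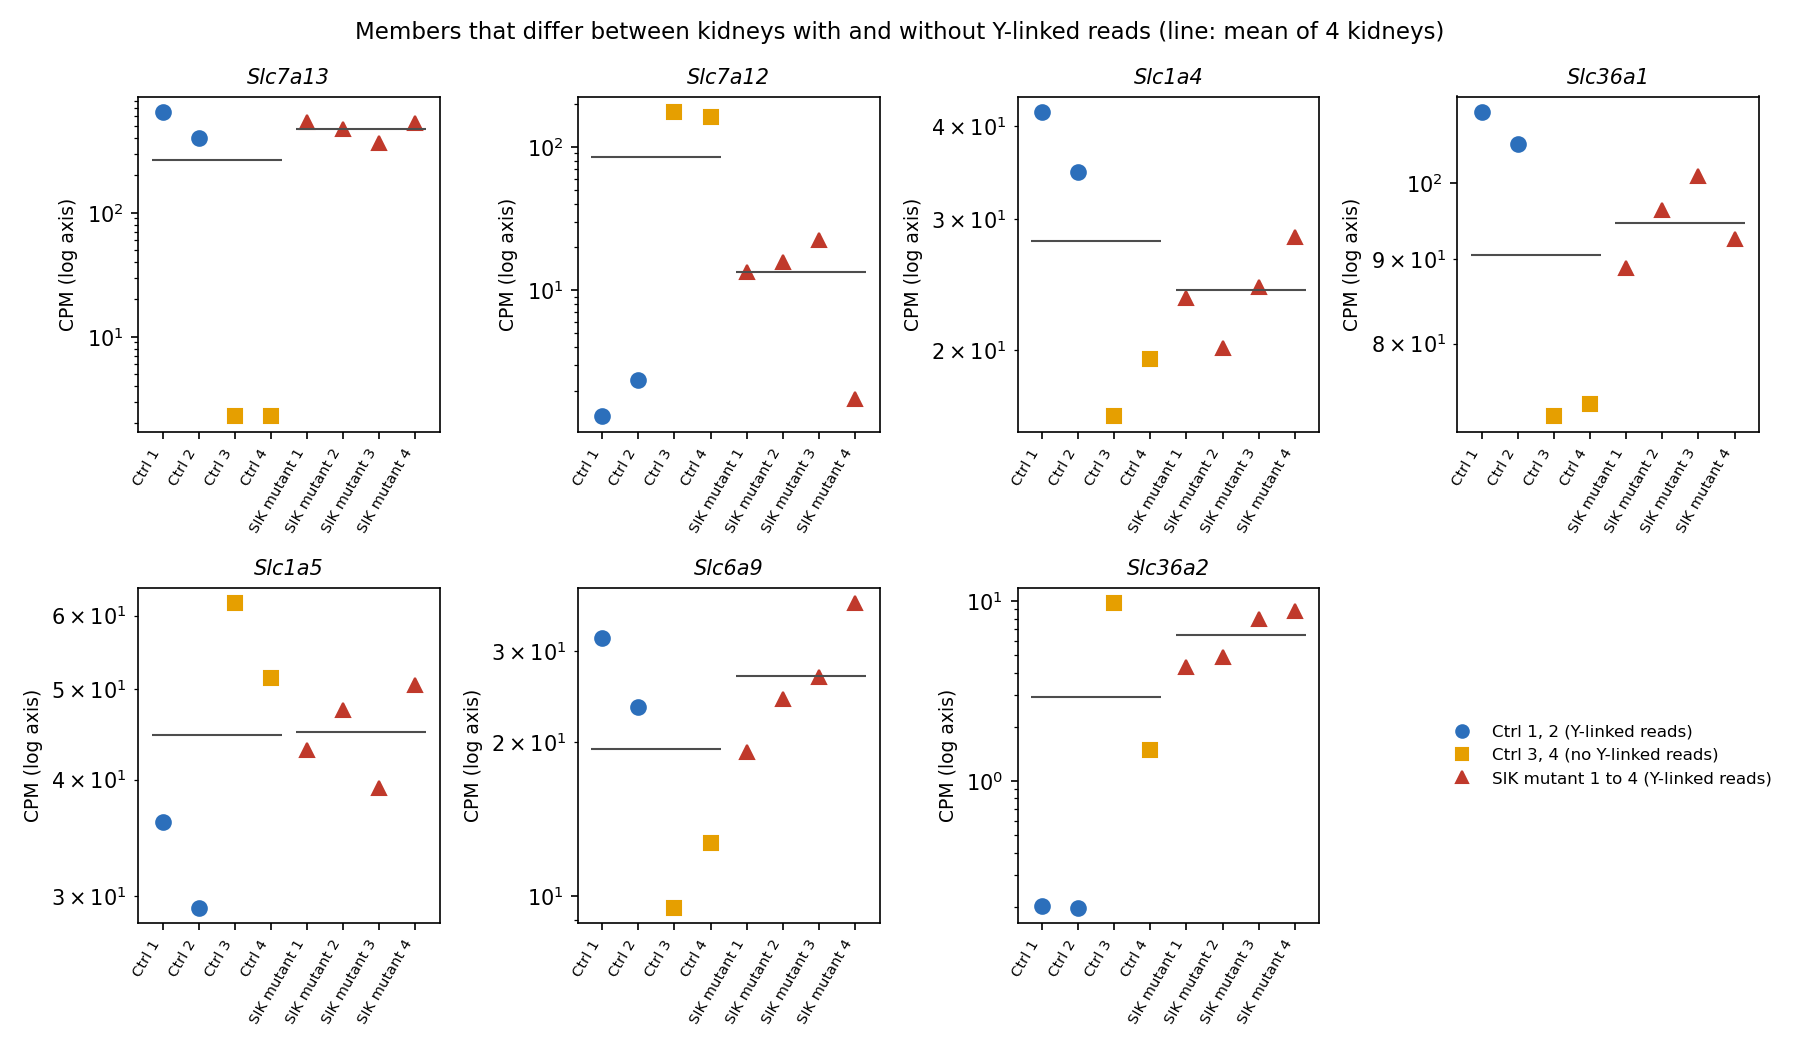
CPM on a log axis of 7 of the 9 members that differed between Ctrl kidneys without and with Y-linked reads, 1 point per kidney, with the mean of 4 kidneys as a line. Ctrl 3 and 4 (squares) lie apart from the other kidneys for Slc7a13 at 2.29 and 2.28 CPM and for Slc7a12 at 175.5 and 160.5 CPM, and Slc36a2 is spread within Ctrl from 0.198 to 9.77 CPM.

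Genes that work beside these carriers were taken as 3 lists. Of 16 partners and other amino acid and peptide carriers outside the 7 families, 12 were tested and 0 passed an edgeR FDR of 0.05 between genotypes, with 0 higher and 1 lower at an unadjusted p under 0.05, where 2.76% of all genes tested were higher and 3.59% lower. The 1 was Slc16a10, the basolateral aromatic amino acid carrier, at a log2 fold change of -0.34 ± 0.101. Cltrn (collectrin), the partner that brings Slc6a19 and Slc6a18 to the renal brush border, had 726.7 to 895.4 TPM in Ctrl and 869.1 to 941.6 TPM in the mutants. Its log2 fold change was -0.0035 ± 0.122. The median of the list was -0.04, beside -0.0038 over all genes tested.

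The list of ATF4, the transcription factor of the amino acid starvation response, held 16 genes, Atf4 itself and its targets. Of these, 14 were tested and 0 passed the FDR, with 2 higher and 0 lower at an unadjusted p under 0.05, beside the same 2.76% and 3.59% of all genes. Both are enzymes of serine synthesis, Psat1 at 0.58 ± 0.167 and Phgdh at 0.40 ± 0.134. The list's median log2 fold change was 0.09. All 18 genes of lysosomal amino acid sensing upstream of mTORC1 were tested, 0 passed the FDR, and 1 was higher at an unadjusted p under 0.05 (2.76% of all genes), Fnip1 at 0.20 ± 0.0844. The median there was 0.0072. In the 6 kidneys with Y-linked reads 0 genes of the 3 lists passed an edgeR FDR of 0.05, against 0.143% of all genes. At an unadjusted p under 0.05, 3 of the 44 list genes tested were higher and 4 lower, where 6.4% and 4.74% of all genes were.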

How the data were processed

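Whole-kidney RNA from 4 Ctrl and 4 SIK mutant mice was sequenced. The submitters' processing notes name FastQC, STAR 2.7.2b, RSEM 1.3.0 and DESeq2 with the mm10 build, and library strandedness is not given in the sources used here. The authors deposited RSEM tables per kidney holding expected counts, TPM, effective length and a posterior SD of the count, the last a signal computed by the authors' RSEM run. Groups and replicate numbers came from the sample labels. Nothing in the labels says that the kidneys came from separate litters, so p-values measure the spread between these samples. Replicates were not duplicates (chi-square per degree of freedom of 9.44 to 53.8).

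Gene IDs without version were matched to GENCODE M21 (55141 of 55401). The members and lists were chosen with earlier results of these data known. Expected counts were rounded, filtered with filterByExpr, scaled by TMM and tested with edgeR 4.0.16 (glmQLFit, glmQLFTest, Benjamini-Hochberg FDR over all genes tested), with no covariate. All 44 members passed the filter. The contrast of Y-linked reads (summed CPM of 4 Y-linked genes above 1) was fitted with genotype. Standard errors are the absolute log2 fold change over the square root of F. CPM uses TMM library sizes, and 3 counts correspond to 0.263 to 0.304 CPM. Intervals and floors cover counting error only. Scripts were tested on simulated data.

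Members named are the highest in mean TPM in each family, the 8 with the smallest p between genotypes, the 6 with the smallest p for Y-linked reads, and those with a textbook role in renal amino acid handling or in a cell type of kidney samples. Slc6a9 falls outside this rule and was chosen after their values were seen, as were the genes named from the lists and the promoters shown. Slc66a1 was matched as Pqlc2. Alternatives were RLE size factors, DESeq2 1.42.0, no filter, limma 3.58.1 on log2(TPM + 1) and log2(TPM + 0.1), a replicate block, each kidney left out, the 6 kidneys with Y-linked reads, a Y-linked covariate and, added after seeing the data, edgeR with legacy off, per-member values of the contrast of Y-linked reads and the lists in 6 kidneys.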

Additional observations from a re-analysis of the deposited data

Results flagged for a closer look

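Samples were screened in each group of 4 for 1 kidney far from the other 3, by the gap to the nearest value over the whole range. Of 52 groups (26 named members in both genotypes), 5 passed Dixon's 95% critical value for 4 samples, where chance at 1 in 20 gives 2.6. Of the 5, 4 were in Ctrl 3. Slc36a2, the proline and glycine carrier also found in brown fat, was highest there at 9.77 CPM against 0.198 to 1.49 in the other Ctrl kidneys (gap 0.865 of the range), in the kidney with the highest fat marker sum of 269.1 TPM. The betaine carrier Slc6a12 was highest at 5.90 CPM against 2.01 to 2.17 (gap 0.959), and Slc6a20a at 36.5 CPM against 18.2 to 19.9 (gap 0.907). Slc43a2, the basolateral uniporter, was lowest at 142.7 CPM against 169.2 to 174.1 (gap 0.844). The same gene was highest in mutant 2, at 187.7 CPM against 158.8 to 162.3 in the other mutants (gap 0.877).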

How the results depend on the processing

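Of 26 named members, 10 kept the sign of their genotype difference in all 18 alternatives and 16 turned in at least 1, and the cause was not tested. With limma on log2(TPM + 1) and log2(TPM + 0.1), in that order, the median over all genes was 0.09 and 0.11, the members' median log2 fold change was 0.0831 and 0.0959, and the values that turned were 0.0912 and 0.0925 for Slc1a1, 0.37 and 0.469 for Slc1a2, 0.116 and 0.157 for Slc6a12, 0.00649 and 0.00983 for Slc6a20a, 0.112 and 0.113 for Slc6a20b, 0.02997 and 0.0303 for Slc6a8, and 0.00876 and 0.00891 for Slc7a7. Members at an FDR under 0.05 numbered 1 in edgeR when only the 6 kidneys carrying Y-linked reads were used and 4 in DESeq2. Members at an unadjusted p under 0.05 numbered 11 when Y-linked reads entered as a covariate and 10 in DESeq2 on 6 kidneys. In edgeR on 6 kidneys, edgeR with the covariate and DESeq2 on 6 kidneys, in that order, the values that turned were -0.18, -0.191 and -0.186 for Slc36a1, 0.0653, 0.0553 and 0.0610 for Slc3a2, -0.0273, -0.0369 and -0.0324 for Slc43a2, 0.274, 0.264 and 0.276 for Slc6a12, 0.164, 0.154 and 0.16 for Slc6a20a, -0.00244, -0.0116 and -0.00707 for Slc6a6, 2.85, 2.84 and 2.86 for Slc7a12, -0.13, -0.142 and -0.137 for Slc7a13, 0.0335, 0.0235 and 0.0290 for Slc7a7, and 0.298, 0.288 and 0.294 for Slc7a8.

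Leaving out 1 kidney at a time gave 0 members at an FDR under 0.05, 4 to 8 at an unadjusted p under 0.05 and a median of -0.0951 to -0.00448. The members whose sign turned then ranged from -0.107 to 0.0467 for Slc1a1, -0.407 to 0.0395 for Slc1a4, -0.145 to 0.211 for Slc1a5, -0.0277 to 0.175 for Slc36a1, -0.349 to 0.0276 for Slc3a2, -0.0424 to 0.0479 for Slc43a2, -0.703 to 0.287 for Slc6a12, -0.442 to 0.133 for Slc6a20a, -0.096 to 0.0726 for Slc6a20b, -0.128 to 0.0165 for Slc6a8 and -0.381 to 0.151 for Slc7a8. The count for Y-linked reads ranged from 2 to 9. Same-numbered kidneys did not deviate together (r of -0.193, 0.0425, 0.0632 and -0.344, and 1 of 4 correlated best with its own number). With the replicate block 0 members passed the FDR, 8 had an unadjusted p under 0.05, and of the named members Slc6a20b turned, to 0.0022. Depth limits the members with few counts, and 2 kidneys carry the contrast of Y-linked reads.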

Other observations

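The 20 genes of the 7 families below a mean of 10 counts were mostly silent in these kidneys, and 6 had 0 counts in all 8 libraries. The nearest to the limit was Slc7a10, a small neutral amino acid carrier, with 5, 6, 9 and 5 counts in Ctrl and 11, 7, 6 and 5 counts in the mutants. The cationic amino acid carrier Slc7a3 had 4, 5, 5 and 6 counts in Ctrl and 1, 2, 5 and 2 in the mutants. The cystine and glutamate exchanger Slc7a11, a target of ATF4, had 1, 2, 0 and 10 counts in Ctrl and 4, 6, 6 and 0 in the mutants. Counts this low overlap between the groups and were not read as differences.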
